A study of Mus musculus with 3 samples.

Results

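Superoxide and hydrogen peroxide are removed by a small set of enzymes, and 10 genes that encode them were followed here: the dismutases Sod1 and Sod2, the catalase gene Cat, the glutathione peroxidases Gpx1, Gpx3 and Gpx4, and the peroxiredoxins Prdx1, Prdx2, Prdx5 and Prdx6. They were taken by symbol from the 31253 genes of the count matrices, where each had 1 row. The data were single-cell RNA counts from jaws of wild-type male C57BL/6 mice aged 10 weeks. Jaws of the group 1d were taken 1 day, and those of the group 7d 7 days, after 10 Gy of radiation to the head and neck, and Ctrl was not irradiated. Cells of 8 mice were pooled in each group, and each pool gave 1 library of cells that had been digested with collagenase, frozen and thawed. Each group being a single library, the spread between animals is unknown and differences between groups carry no test. Intervals below are exact 95% intervals and cover counting error only.

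Superoxide is turned into hydrogen peroxide by the dismutases. Sod1 works in the cytosol and Sod2 in the mitochondrial matrix. The peroxide is then reduced by catalase, which needs no partner and sits mainly in peroxisomes, by glutathione peroxidases, which draw electrons from glutathione, and by peroxiredoxins, most of which draw them from thioredoxin. Phagocytes make superoxide on purpose with the NADPH oxidase, red cells are known for their catalase, Gpx1 and Prdx2, and ionizing radiation forms superoxide and peroxide from water.

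The 3 matrices held 41048084 unique molecular identifiers (UMIs, each counting 1 captured RNA molecule) in Ctrl, 46119700 in 1d and 49998293 in 7d. After filters on UMIs, genes, mitochondrial RNA and doublets, 8623, 4879 and 6094 cells remained, with a median of 2419, 5022 and 3816.5 UMIs. Between 20 and 25 cell barcodes of a library also occurred in another. The cells formed 28 clusters, of which 24 took a class name from marker genes, and each name stands for cells like that type. The mesenchymal pool was 1 cluster, which carried 9 of 11 osteoblast markers and was led by Bglap, Col1a1 and Col2a1, but also expressed fibroblast markers. The stem or progenitor class was led by Pf4 and Itga2b, genes of megakaryocytes, and carried 5 of 10 of its own markers. The monocyte class was 1 cluster in which macrophage genes such as C1qb and Apoe also led. An unnamed pair of clusters was compared under their leading genes: Ctla4 and Icos led one, Bmp2 and Enpp2 the other. The remaining unnamed clusters, B cells mixed with haemoglobin and a cluster of Ctrl cells only, were not compared.

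The 3 glutathione peroxidase genes share a feature that the other 7 lack: an in-frame TGA codon, read as selenocysteine, at the catalytic site. It was found by reading the coding sequences of the GENCODE M21 transcripts, in which the GRCm38 annotation places 1 selenocysteine in each of these 3 genes. The codon was number 47 in Gpx1, 73 in Gpx3 and 129 in Gpx4, each counted from the first ATG of the transcript read. The sequences are shown because this codon ties Gpx1, Gpx3 and Gpx4 to the selenoprotein synthesis genes counted further on. They are 27 bases of the coding strand, 5′ to 3′, with the selenocysteine codon in capitals.
Gpx1: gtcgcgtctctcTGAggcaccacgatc
Gpx3: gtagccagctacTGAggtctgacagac
Gpx4: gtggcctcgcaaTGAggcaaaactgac
The coding sequences of Sod1, Sod2, Cat, Prdx1, Prdx2, Prdx5 and Prdx6 held no in-frame TGA before the final stop.

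On GRCm38 the genes lie on 10 different chromosomes: Sod1 on chromosome 16 (90220754 to 90226329, plus strand), Sod2 on chromosome 17 (13006846 to 13040063, plus strand), Cat on chromosome 2 (103453849 to 103485160, minus strand), Gpx1 on chromosome 9 (108338903 to 108340343, plus strand), Gpx3 on chromosome 11 (54902453 to 54910377, plus strand), Gpx4 on chromosome 10 (80047166 to 80056439, plus strand), Prdx1 on chromosome 4 (116685544 to 116700822, plus strand), Prdx2 on chromosome 8 (84969587 to 84974834, plus strand), Prdx5 on chromosome 19 (6906697 to 6910106, minus strand) and Prdx6 on chromosome 1 (161240112 to 161251219, minus strand). The annotation holds 1 gene model named as a copy of Gpx4 and 2 named as copies of Prdx6, so reads that match both could be split or lost for these genes.

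Promoter windows from RefSeq (GRCm38.p6) matched 9 of the 10 genes, all but Prdx6. The letters TGACNNNGC, the core to which the oxidative stress factor NRF2 binds, were searched on both strands of the 250 bases before and 50 after each start. They were found once for Prdx1 and once for Sod1, and in 12.4% of all 32851 promoter windows. These 2 windows are shown because no other member's window held the match. Each is the 250 bases before the start on the plus strand, 5′ to 3′, with the match, which lies on the other strand, in capitals.
Prdx1, chr4:116685349-116685598: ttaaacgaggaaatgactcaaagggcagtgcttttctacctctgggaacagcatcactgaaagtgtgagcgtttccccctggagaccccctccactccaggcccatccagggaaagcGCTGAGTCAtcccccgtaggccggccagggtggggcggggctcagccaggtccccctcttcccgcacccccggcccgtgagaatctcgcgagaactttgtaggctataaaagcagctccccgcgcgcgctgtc
Sod1, chr16:90220512-90220761: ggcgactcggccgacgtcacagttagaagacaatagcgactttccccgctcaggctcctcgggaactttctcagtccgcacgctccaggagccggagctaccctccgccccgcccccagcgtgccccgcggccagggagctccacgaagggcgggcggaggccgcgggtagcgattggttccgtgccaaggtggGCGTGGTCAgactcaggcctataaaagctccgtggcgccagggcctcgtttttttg
The windows of the other 7 genes held no such match, which says only that these letters are not in them. The windows of the 9 genes held neither AGATAA, the GATA letters, nor CACGTG, an E-box, on either strand, letters found in 11.2% and 7.15% of all windows.

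Which enzyme gene was most abundant depended on the cell class. A level is given as UMIs of the gene per 1000000 UMIs of the class (CPM), which for counts of transcript 3′ ends can be set side by side between genes without regard to length. In 43 pairs of a class and a library with at least 30 cells, Gpx1 led 18 times, Prdx6 9 times, Prdx1 and Prdx5 6 times each, Gpx3 3 times and Sod1 once. Sod2, Cat, Gpx4 and Prdx2 led in none of the 43.

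**Figure D1:**
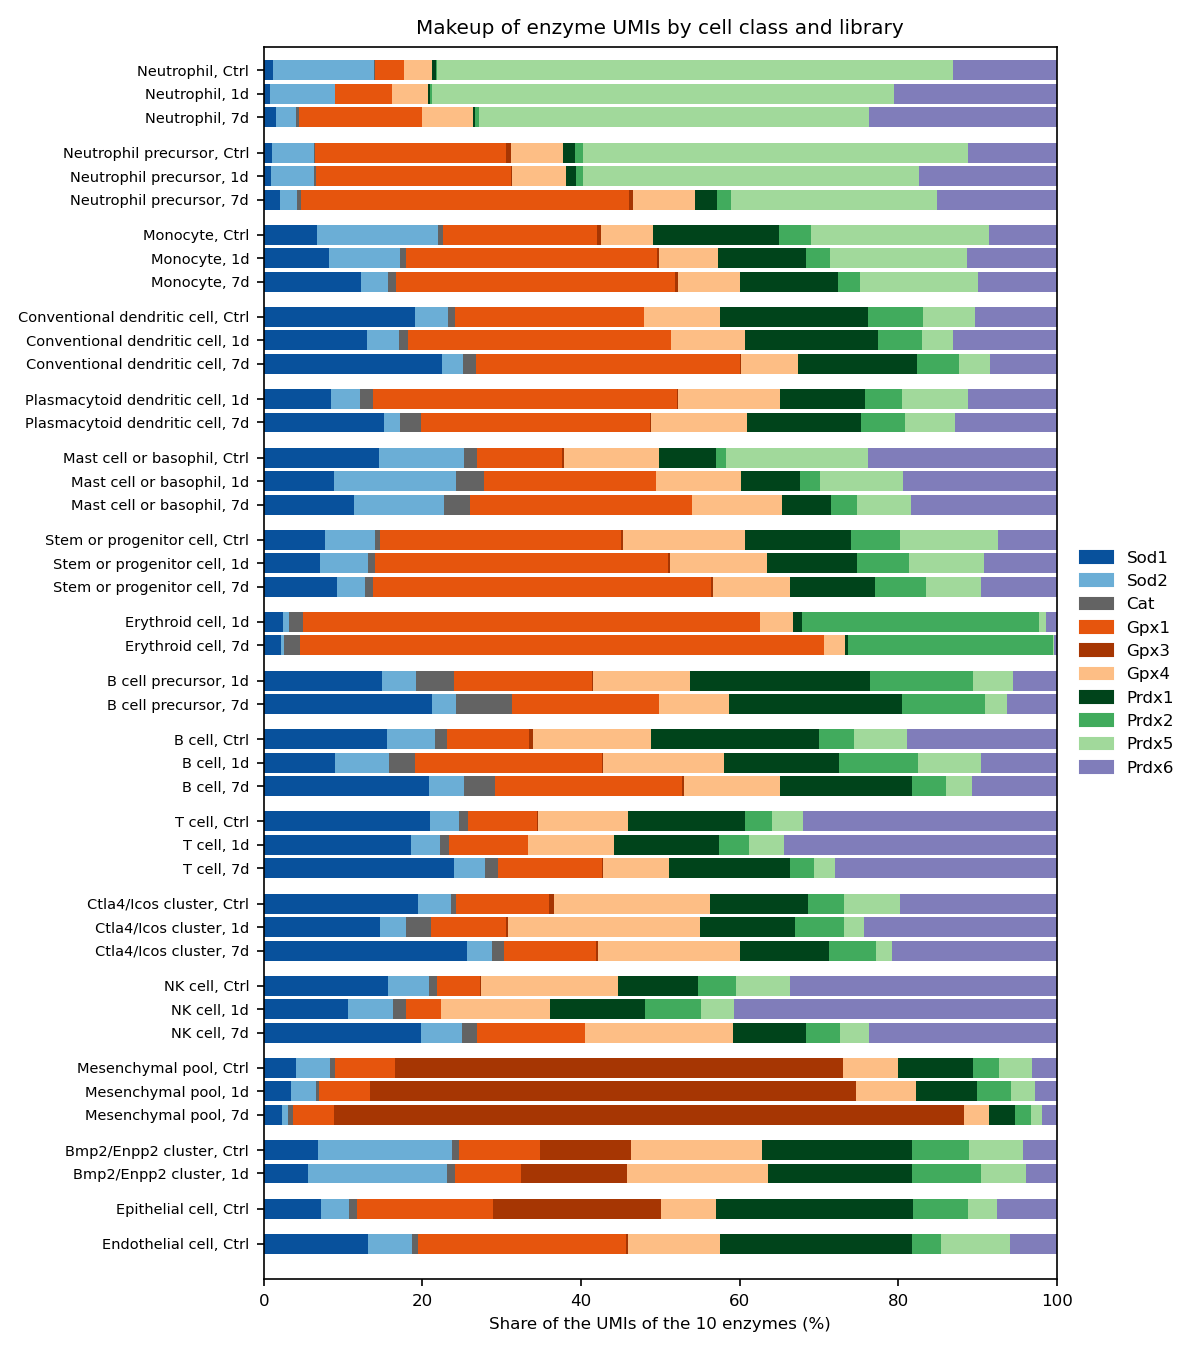
Share of each enzyme gene among the UMIs of the 10 genes (x axis, percent), with 1 bar per cell class and library of at least 30 cells. Prdx5 has the largest share in the neutrophil bars, Gpx3 makes up most of the mesenchymal pool and Gpx1 most of the erythroid bars.

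Neutrophils were dominated by Prdx5, a peroxiredoxin of mitochondria, peroxisomes and cytosol. It made up 65.1% in Ctrl, 58.3% in 1d and 49.2% in 7d of the UMIs of the 10 genes. Its level was 3360.2 in Ctrl, 2733 in 1d and 1807 in 7d, in CPM as are all levels below. Prdx6, which also reduces phospholipid peroxides, came second in neutrophils, with 677 in Ctrl, 962 in 1d and 868 in 7d. Other members were near the bottom of the scale there: Cat had 3.35 in Ctrl, 2.18 in 1d and 11.7 in 7d, and Prdx2 had 13.7 in 1d and 7.13 in Ctrl. Prdx1, the abundant cytosolic peroxiredoxin of most other classes, had 26.2 in Ctrl, 9.97 in 1d and 9.39 in 7d, and Gpx3 had 4.19 in Ctrl, 1.25 in 1d and 2.35 in 7d. Among the 4 peroxiredoxins, neutrophils thus had Prdx5 and Prdx6 high and Prdx1 and Prdx2 low in every library.

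Neutrophil precursors led with Prdx5 in Ctrl and 1d and with Gpx1, the cytosolic glutathione peroxidase, in 7d. Prdx5 was 48.6% in Ctrl, 42.4% in 1d and 26.0% in 7d of the enzyme UMIs and Gpx1 24.1% in Ctrl, 24.6% in 1d and 41.4% in 7d. This class joined clusters with Elane, Ltf and Camp among their leading genes, which in that order are markers of early and later stages. The Ltf cluster, of 61, 487 and 109 cells in Ctrl, 1d and 7d, carried 6 of 12 precursor markers. Its mean log2 ratio to all other cells was -1.01 for precursor markers and 0.94 for neutrophil markers, so its name is weak. The Elane cluster held 32, 207 and 354 of the precursors in Ctrl, 1d and 7d, and in it Gpx1 was already above Prdx5 in Ctrl (2221 and 1959 CPM). In the Ltf cluster Prdx5 led in all 3 libraries, with 2552 in Ctrl, 2634 in 1d and 2094 in 7d. In the Camp cluster Prdx5 led as well, with 3465, 2126 and 1643 in Ctrl, 1d and 7d, beside Gpx1 at 796, 798 and 1248.

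Erythroid cells, which had at least 30 cells in 1d and 7d only, were dominated by Gpx1 and Prdx2, the peroxiredoxin of red cells. Gpx1 was at 4911 in 1d and 7477 in 7d, and Prdx2 at 2547 and 2916, the highest levels of these genes among the 43 pairs. Cat reached its highest level there too, 229.9 in 7d. The same genes made up most of the enzyme UMIs of barcodes in which over 50% of UMIs were haemoglobin, which the filter had removed: Gpx1 was 67.0% of them in Ctrl, 77.4% in 1d and 84.5% in 7d. Haemoglobin UMIs were present in every other class as well, and their share is given beside the results they touch.

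The mesenchymal pool was set apart by Gpx3, the glutathione peroxidase that is secreted into plasma and matrix. Gpx3 made up 56.4% in Ctrl, 61.4% in 1d and 79.5% in 7d of the enzyme UMIs of the pool. Its level was 2757 (2704 to 2811) in Ctrl, 3568 (3458 to 3679.5) in 1d and 7122 (6910.1 to 7339) in 7d. After each cell was thinned to 1000 UMIs, 59.9% (54.8 to 64.9) of pool cells held a Gpx3 UMI in Ctrl, 68.4% (58.2 to 77.4) in 1d and 63.9% (50.6 to 75.8) in 7d, and 76.6%, 84.8% and 70.5% did so before thinning. In T cells, which should lack Gpx3, the thinned shares were 0.0938% (0.00237 to 0.522) in Ctrl, 0% (0 to 3.36) of 108 cells in 1d and 0.184% (0.0380 to 0.538) in 7d. Median depth before thinning was 6048, 8155 and 7586 UMIs in the pool and 3335, 4326 and 3466 in T cells. In the Bmp2 and Enpp2 cluster Gpx3 was at 569.9 in 1d and 446 in Ctrl, below Prdx1, Gpx4 and Sod2, and its 25 cells of 7d held 1723. Epithelial cells of Ctrl showed 686, but 1 of their 63 cells held 42.3% of these UMIs. In the other pairs of class and library its level was at most 34.6, in neutrophil precursors of Ctrl.

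In lymphocytes the 10 genes together made up 1160 CPM in B cells of Ctrl and 1795 in T cells of Ctrl, against 5164 in neutrophils and 4927 in monocytes of that library. T cells and NK cells were led by Prdx6 in every library, followed by Sod1 or Gpx4. Prdx6 was 32.0% in Ctrl, 34.4% in 1d and 28.0% in 7d of enzyme UMIs in T cells and 33.6% in Ctrl, 40.7% in 1d and 23.7% in 7d in NK cells. The Ctla4 and Icos cluster had Prdx6 and Gpx4, the peroxidase that protects membrane lipids, at almost the same level in 1d (474 and 469) and Ctrl (419.8 and 417), with intervals of the ratio that held 1. It was led by Sod1 in 7d. B cells were led by Prdx1 in Ctrl and by Gpx1 in 1d and 7d, although in 7d Gpx1 over Sod1 was 1.13 with an interval from 0.954. In the largest B cell cluster alone the leader was Prdx1 in 1d and Sod1 in 7d. B cell precursors, absent as a class from Ctrl, were led by Prdx1, with 372 in 1d and 545 in 7d. In 7d Prdx1 over Sod1 was 1.02 with an interval from 0.926, and Sod1 led in thinned cells and by the mean per cell.

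In the remaining classes Gpx1 usually led. It led conventional dendritic cells with 666 in Ctrl, 1076 in 1d and 992 in 7d, the stem or progenitor class with 1310.05 in Ctrl, 1273 in 1d and 1636 in 7d, and plasmacytoid dendritic cells with 860.4 in 1d and 679 in 7d. In the 48 stem or progenitor cells of Ctrl, Gpx4 led instead in thinned cells and by the mean per cell. Monocytes were led by Prdx5 in Ctrl (1099.8, with Gpx1 at 958) and by Gpx1 in 1d and 7d. In Ctrl, neutrophil RNA would carry 344 of the Prdx5 CPM at the ratio of that library's neutrophils, and Gpx1 led with the stricter cell filter and at Leiden resolution 2. In the finer monocyte part described below, Ctrl had Gpx1 at 1665 and Prdx5 at 775. Mast cells or basophils were led by Prdx6 in Ctrl (523) and Gpx1 in 1d and 7d, where in 1d Gpx1 over Prdx6 was 1.12 with an interval from 0.913. Epithelial cells of Ctrl and the Bmp2 and Enpp2 cluster of Ctrl and 1d were led by Prdx1. In thinned cells of Ctrl, Gpx3 led the epithelial cells instead and Sod2 led that cluster. In the cluster of 1d, Prdx1 over Gpx4 was 1.02 with an interval from 0.933. In endothelial cells of Ctrl Gpx1 was at 551 and Prdx1 at 508, and the interval of their ratio held 1. Gpx4 varied least, from 153 CPM in T cells of 7d to 759 in the Bmp2 and Enpp2 cluster of 1d, a range of 4.96-fold, while Prdx2 varied 409-fold.

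The change after irradiation was measured as the ratio of levels, with a gene counted as higher or lower where the ratio was at least 1.5-fold and its interval left out 1. Genes needed at least 100 UMIs over both libraries and classes at least 30 cells in both. At 1d, 12 of 103 measured pairs of class and member were higher (11.7%) and 11 were lower (10.7%), where 10.1% and 8.53% of all pairs of class and gene were. At 7d, 20 of 98 pairs were higher (20.4%) and 21 lower (21.4%), where 17.9% and 14% of all pairs were. These shares were near those of all genes at both times, with the largest gap among the genes lower at 7d. Gpx3 was measured in 4 classes at 1d and 3 at 7d and Cat in 6 and 8, since the others held too few of their UMIs.

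**Figure D2:**
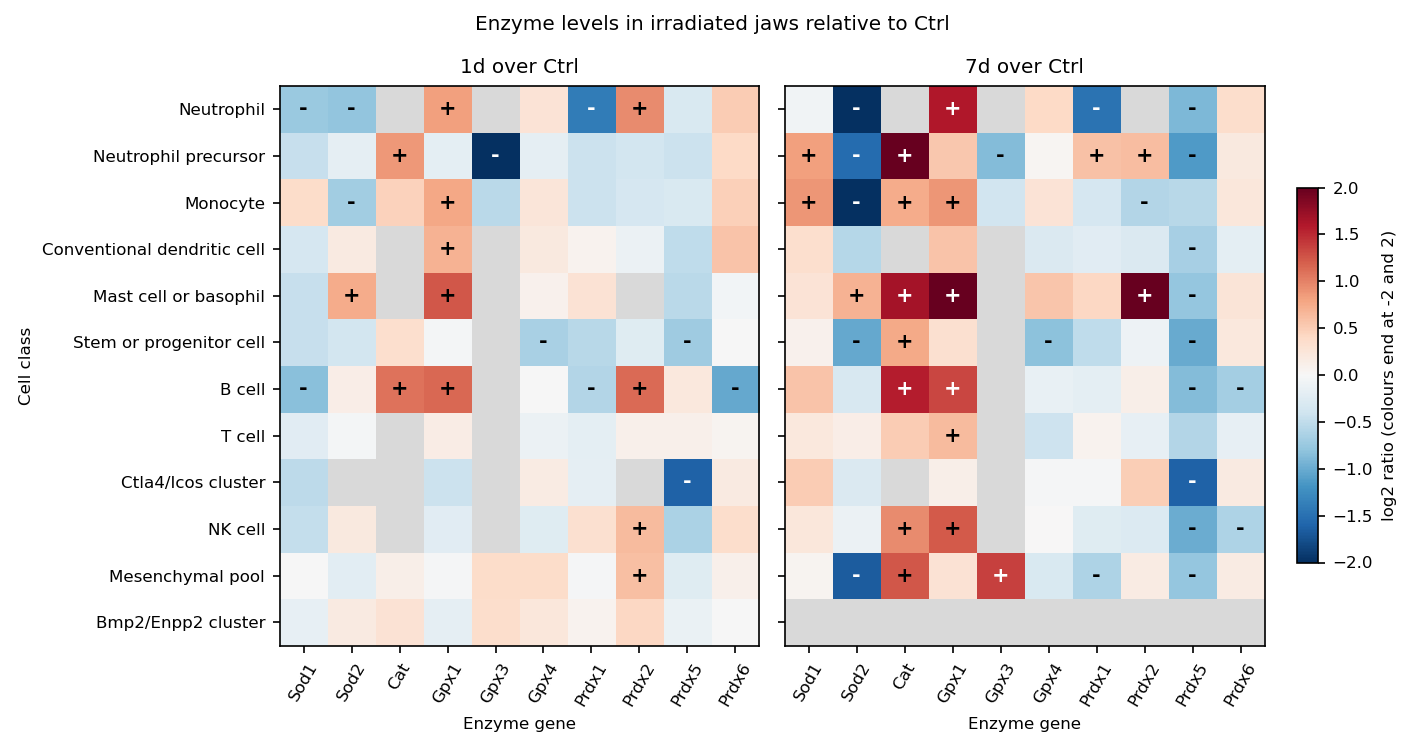
Ratio of each enzyme gene to Ctrl by cell class (rows) at 1d (left) and 7d (right), as log2 colours, where + marks a gene counted as higher, - one counted as lower and grey a gene or class not measured. On the right Prdx5 is below Ctrl in every class measured, Cat and Gpx1 are above it, and Sod2 is lowest in neutrophils and monocytes.

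By class, neutrophils had 5 of 8 measured members called at 1d, where 22.5% of all genes were, and 4 of 7 at 7d (35.2%). Neutrophil precursors had 2 of 10 at 1d (16.9%) and 7 of 10 at 7d (47.1%). Monocytes had 2 of 10 at 1d (33.2%) and 5 of 10 at 7d (37.7%). The mesenchymal pool had 1 of 10 at 1d (13.8%) and 5 of 10 at 7d (41.1%), and the Bmp2 and Enpp2 cluster had 0 of 10 at 1d (10.1%). B cells had 6 of 9 at 1d (31.5%) and 4 of 9 at 7d (23.4%). T cells had 0 of 8 at 1d (7.79%) and 1 of 9 at 7d (23.8%), NK cells 1 of 8 at 1d (9.09%) and 4 of 9 at 7d (23.7%), and the Ctla4 and Icos cluster 1 of 6 at 1d (16.7%) and 1 of 8 at 7d (19.9%). Conventional dendritic cells had 1 of 8 at 1d (18.1%) and 1 of 8 at 7d (32.9%), mast cells or basophils 2 of 7 at 1d (37.4%) and 5 of 9 at 7d (47.6%), and the stem or progenitor class 2 of 9 at 1d (13.5%) and 4 of 9 at 7d (22.6%). Neutrophils and B cells at 1d were furthest above the rate of all genes. Both classes differed in makeup. The cluster with Rag1 among its leading genes held 926 of 1271 B cells in 1d and 40 of 1781 in Ctrl. The Mmp8 cluster held 312 of 758 neutrophils in 1d and 241 of 2966 in Ctrl. Of the B cell calls at 1d, only that of Sod1 was also met in the largest B cell cluster. The part of cell makeup in these counts was not tested. The median log2 ratio of all genes was between -0.10 and 0.16, except 0.43 in precursors and 0.28 in mast cells or basophils at 7d. TMM scaling, which corrects for such shifts, would move every log2 ratio by -0.36 in precursors, -0.30 in the mesenchymal pool, -0.20 in mast cells or basophils, 0.13 in NK cells and 0.11 in T cells at 7d, and at 1d by -0.21 in mast cells or basophils and -0.15 in monocytes.

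Sod2, the mitochondrial dismutase, had the lowest ratio of any measured member. In neutrophils it was 662 (646 to 679) in Ctrl, 385 (364 to 407) in 1d and 93.9 (74.5 to 117) in 7d. The ratio was 0.581 (0.547 to 0.618) at 1d and 0.142 (0.112 to 0.177) at 7d. The fall at 7d was seen in each of the 3 neutrophil clusters, with 0.0681 (0.0352 to 0.119) in the Cstdc4 cluster, 0.329 (0.228 to 0.459) in the Il1rn cluster and 0.126 (0.0862 to 0.177) in the Mmp8 cluster. At 1d only the Mmp8 cluster passed the threshold, at 0.486 (0.440 to 0.536), against 0.733 and 0.918 in the others. Neutrophil precursors had 294 in Ctrl, 260.02 in 1d and 101 in 7d, a ratio of 0.344 (0.314 to 0.378) at 7d, and 0.403, 0.556 and 0.251 within the Elane, Ltf and Camp clusters.

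Sod2 fell at 7d in 3 further classes. The mesenchymal pool had 211 in Ctrl, 182 in 1d and 66.7 in 7d, with a ratio of 0.316 (0.224 to 0.434) at 7d (40 UMIs against 779). The stem or progenitor class was at 0.491 (0.437 to 0.552), but 1 of its 48 Ctrl cells held 18.5% of the Sod2 UMIs, and thinned cells gave 0.892. Monocytes had 752 in Ctrl, 465 in 1d and 169 in 7d, ratios of 0.619 (0.580 to 0.660) at 1d and 0.225 (0.204 to 0.248) at 7d. At a finer clustering (Leiden resolution 2) a macrophage part held 388, 221 and 46 cells in Ctrl, 1d and 7d. The monocyte part held 81, 361 and 537. The monocyte class held 513, 494 and 422 cells, so these parts are not a split of the same cells. The Sod2 level of macrophages was 862 in 1d and 828 in Ctrl, and 275 in 7d. Their ratios were 1.04 (0.963 to 1.12) at 1d and 0.332 (0.260 to 0.418) at 7d. Monocytes proper were at 0.957 (0.849 to 1.08) at 1d and 0.524 (0.463 to 0.595) at 7d. The lower value of the class at 1d was not seen in either finer part, while lower values at 7d were seen in both. The part of the differing cells in this was not tested.

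In the other classes Sod2 was not called lower. In T cells it was at 1.09 (0.934 to 1.28) at 7d, in NK cells at 0.918 (0.760 to 1.11) and in B cells at 0.798 (0.584 to 1.07), none of them called. Mast cells or basophils went the other way, with 236 in Ctrl, 396 in 1d and 384 in 7d and ratios of 1.68 (1.23 to 2.30) at 1d and 1.63 (1.23 to 2.18) at 7d. In 1d, 1 of the 50 cells held 22.6% of these UMIs, and without the top cell of each library the ratio at 1d was 1.42. With TMM scaling it was 1.41 at 7d. Conventional dendritic cells were just inside the threshold, at 0.674 (0.505 to 0.898) at 7d.

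Sod1, the cytosolic dismutase, was below Ctrl in 11 of 12 classes at 1d and above it in 10 of 11 classes at 7d, mostly by less than the threshold. At 1d it was called lower in B cells, 0.562 (0.492 to 0.642), and in neutrophils, 0.599 (0.484 to 0.736). In the largest B cell cluster it was also lower, at 0.640 (0.510 to 0.796). Among neutrophil clusters the Mmp8 cluster was at 0.465, while the Cstdc4 and Il1rn clusters were at 0.886 and 0.798. At 7d the Mmp8 cluster alone was again called lower, at 0.501. At 7d Sod1 was called higher in monocytes, 1.85 (1.70 to 2.02), and neutrophil precursors, 1.77 (1.49 to 2.11). In the finer macrophage and monocyte parts it was 1.20 and 1.39, neither called, and among precursor clusters it was 1.8 in the Elane cluster and 1.08 in the Camp cluster. In the Ltf cluster, the largest of the precursors, Sod1 went the other way, with a log2 ratio of -0.360. With TMM scaling 1 of the 2 calls at 7d was kept, that in monocytes. The mesenchymal pool kept close levels of Sod1, 199.7 in Ctrl, 198 in 1d and 208 in 7d.

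**Figure D3:**
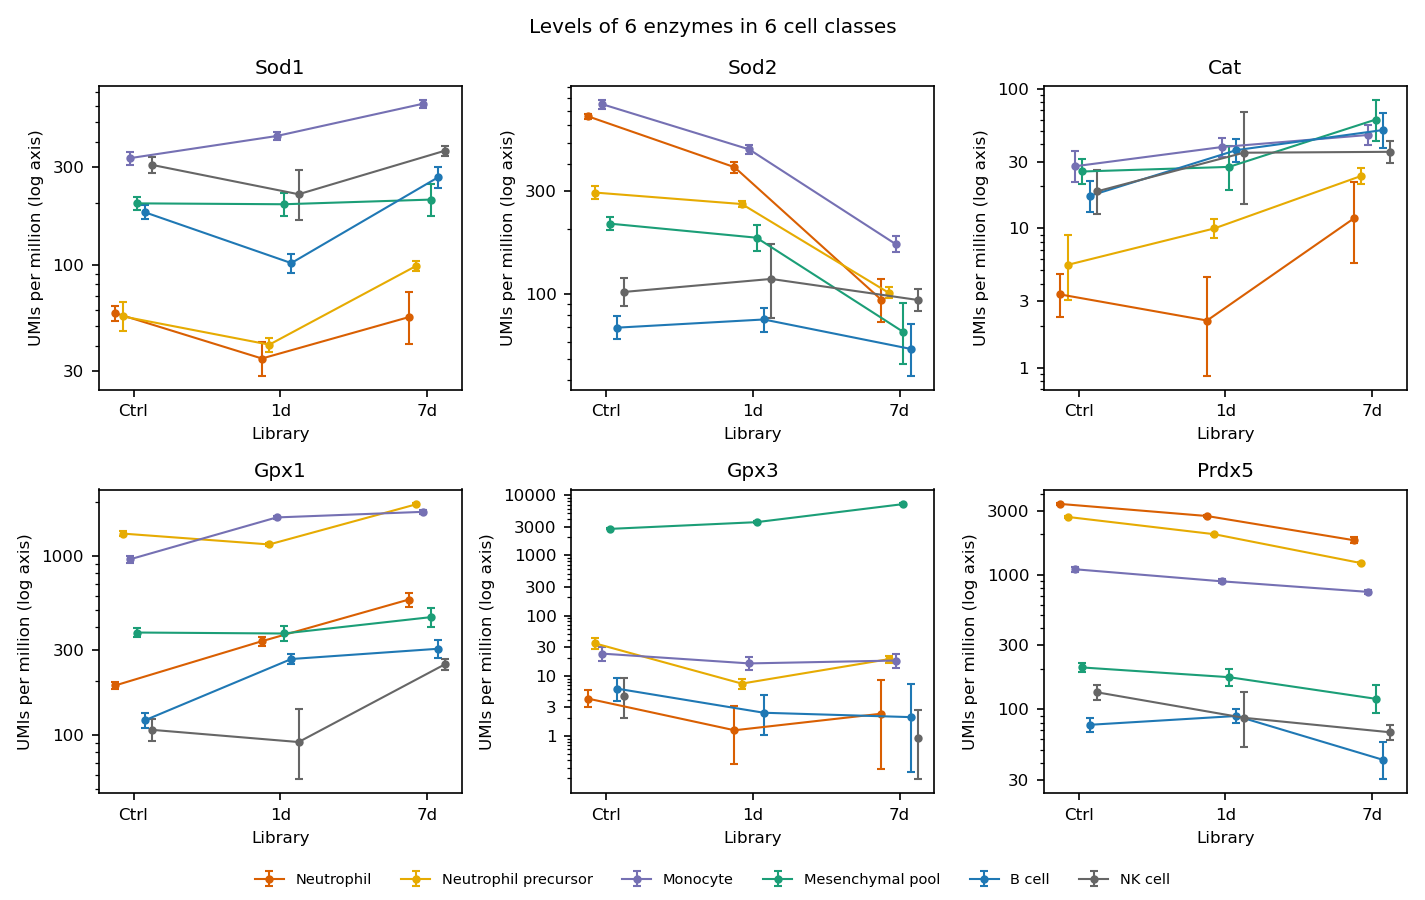
Levels of 6 enzyme genes in Ctrl, 1d and 7d (x axis) for 6 cell classes (colours), as CPM on a log axis with exact 95% counting intervals; classes listed at 0 are not drawn. Sod2 and Prdx5 slope down toward 7d in neutrophils, their precursors and monocytes, and Gpx1 slopes up in neutrophils and B cells.

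Cat, the catalase gene, had its highest levels in erythroid cells of 7d (229.9), B cell precursors of 7d (176) and mast cells or basophils of 7d (112), and was called higher at 7d in 7 of the 8 classes in which it could be measured. In cells thinned to 1000 UMIs none of the 7 was called, with ratios above 1 in 6 of them and 0.594 in the stem or progenitor class, and at Leiden resolution 2 the call held in 3 of 6. The largest ratio was in neutrophil precursors, 4.33 (2.58 to 7.86), with 253 UMIs against 15. Within the Elane cluster, the only one with enough UMIs, it was 2.40 (1.37 to 4.57). Mast cells or basophils were at 3.16 (1.60 to 7.10), B cells at 2.96 (2.0 to 4.37) and the mesenchymal pool at 2.36 (1.56 to 3.49) (36 UMIs against 94). NK cells, the stem or progenitor class and monocytes were at 1.92, 1.70 and 1.68, and T cells at 1.42 (1.09 to 1.85) were not called. At 1d Cat was called higher in B cells, 2.13 (1.56 to 2.93), and neutrophil precursors, 1.82 (1.07 to 3.34). In the largest B cell cluster the 1d ratio was 0.828 on under 100 UMIs, and most B cells of 1d were in the cluster with Rag1 among its leading genes. At the ratio of Cat to haemoglobin UMIs seen in haemoglobin-dominated barcodes of 7d, the haemoglobin in NK cells of 7d would carry 5.38 of their 35.2 CPM of Cat, and that in the mesenchymal pool 0.0929 of 60.0.

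Gpx1 was above Ctrl in all 11 classes at 7d and was called in 6 of them, and at 1d it was called higher in 5 of 12 and lower in none. In neutrophils it was 189 in Ctrl, 334 in 1d and 571 in 7d, with ratios of 1.77 (1.64 to 1.91) at 1d and 3.02 (2.73 to 3.34) at 7d. The clusters differed in size of effect: at 7d the Cstdc4 cluster was at 5.99 (5.02 to 7.11), the Il1rn cluster at 3.06 (2.0 to 4.54) and the Mmp8 cluster at 1.62 (1.41 to 1.85). At 1d the same clusters were at 2.27, 0.761 and 1.12, and only the first of these was at least 1.5-fold. The Mmp8 cluster held 241 of 2966 neutrophils in Ctrl and 312 of 758 in 1d. The part of this mix in the class ratio was not tested. Precursors were at 1.46 (1.41 to 1.51) at 7d, just under the threshold, with 1.59 and 1.57 in the Ltf and Camp clusters and 1.02 in the Elane cluster.

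Mast cells or basophils had the largest rise of Gpx1, with 236 in Ctrl, 561 in 1d and 948 in 7d and ratios of 2.38 (1.78 to 3.22) and 4.02 (3.09 to 5.31) at 1d and 7d. Thinned to 1000 UMIs, the cells gave 1.47 and 2.08. B cells were at 2.21 (1.97 to 2.48) and 2.52 (2.17 to 2.92), and their largest cluster at 1.27 and 2.18 (1.8 to 2.62). Conventional dendritic cells were at 1.61 (1.45 to 1.79) at 1d and 1.49 at 7d. Monocytes were at 1.72 (1.64 to 1.8) and 1.84 (1.76 to 1.94). The finer clustering, of partly other cells, gave 1.21 (1.12 to 1.31) in macrophages and 1.10 (1.05 to 1.15) in monocytes proper at 1d. At 7d it gave 1.84 (1.65 to 2.06) and 1.11 (1.06 to 1.16). Neither finer part was called at 1d, and only macrophages were at 7d. In the mesenchymal pool Gpx1 was not called at either time (373 in Ctrl, 369 in 1d and 455 in 7d).

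Red cell RNA also carries Gpx1. Haemoglobin made up 2.80%, 0.0547% and 3.18% of the UMIs of NK cells in Ctrl, 1d and 7d. Gpx1 in these cells was at 107 in Ctrl, 91.1 in 1d and 249 in 7d (ratio 2.33, 1.99 to 2.75 at 7d). In haemoglobin-dominated barcodes Gpx1 had 0.333, 2.42 and 4.39 UMIs per 1000 haemoglobin UMIs in Ctrl, 1d and 7d. At that ratio the haemoglobin in NK cells would carry 139 of 249 CPM of Gpx1 in 7d and 9.33 of 107 in Ctrl. In T cells, with 1.98% haemoglobin in 7d and 2.11% in Ctrl, it would carry 86.7 of 239 in 7d and 7.03 of 154 in Ctrl, and the T cell ratio of 1.55 (1.40 to 1.70) became 1.16 with 5% free RNA subtracted. Among T cell clusters it was 4.35 (3.73 to 5.06) in the Gimap3 cluster, but 0.918 and 0.997 in the Cd8b1 cluster and the Trac and Xcl1 cluster. In B cells it would carry 30.7 of 303 in 7d and in mast cells or basophils 40.9 of 948, where the subtraction gave ratios of 2.20 and 4.00. The haemoglobin share of mast cells or basophils was 1.41% in Ctrl, 0.0255% in 1d and 0.933% in 7d. It would carry 4.70 CPM of Gpx1 in Ctrl, 0.615 in 1d and 40.9 in 7d, and its part in the ratios was not tested. Neutrophils held 1.87%, 1.22% and 2.11% haemoglobin in Ctrl, 1d and 7d, and the same subtraction left Gpx1 at 2.89 at 7d.

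Gpx3 rose in the mesenchymal pool at 7d, with 4272 UMIs in 61 cells against 10175 UMIs in 381 cells of Ctrl, a ratio of 2.58 (2.49 to 2.68). At 1d the ratio was 1.29 (1.25 to 1.34), under the threshold. In 7d, 1 cell held 11.7% of the Gpx3 UMIs. Without the top cell of each library the ratio was 2.39 at 7d, with TMM scaling 2.10 and in thinned cells 2.07. The share of thinned cells with a Gpx3 UMI, given above, did not differ beyond its interval. In the Bmp2 and Enpp2 cluster the 1d ratio was 1.28 (1.16 to 1.40), and the 7d library had only 25 cells of it. Neutrophil precursors were called lower for Gpx3 at 1d, 0.215, and at 7d, 0.546, but 1 of the 142 Ctrl cells held 51.6% of the 95 Gpx3 UMIs there, and without the top cells the ratios were 0.428 and 1.10.

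Gpx4 was called once at each time, in the same class. It was lower in the stem or progenitor class, at 0.638 (0.591 to 0.688) at 1d and 0.567 (0.527 to 0.610) at 7d. This class had 48 cells in Ctrl, and its name depended on the setting. With the stricter filter the cluster with Pf4 among its leading genes was named monocyte. At Leiden resolution 0.5 and with doublets kept it was unnamed, and at resolution 2 it held 29 cells in Ctrl, too few to compare. The part of cell makeup in the Gpx4 ratios was not tested. Elsewhere its ratios were from 0.845 to 1.29 at 1d and from 0.750 to 1.47 at 7d. In neutrophils it was 177 in Ctrl, 215 in 1d and 233 in 7d, and within the Cstdc4 cluster it passed the threshold at 7d, at 1.79 (1.40 to 2.26), and within the Il1rn cluster at 1d, at 1.55 (1.11 to 2.14).

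Prdx5 was below Ctrl in all 11 classes at 7d and was called lower in 9 of them, the most of any member. Of these 9, 4 were still called in cells thinned to 1000 UMIs and 6 with 5% free RNA subtracted. In neutrophils the ratio was 0.813 (0.794 to 0.833) at 1d and 0.538 (0.511 to 0.566) at 7d, and at 7d the clusters were at 0.594 (Cstdc4), 0.299 (Il1rn) and 0.531 (Mmp8). Precursors were at 2691 in Ctrl, 2002 in 1d and 1222 in 7d, with a ratio of 0.454 (0.441 to 0.467), and 0.516, 0.820 and 0.474 in the Elane, Ltf and Camp clusters. Monocytes at 0.679 (0.642 to 0.718) and T cells at 0.667 (0.564 to 0.790) were not called, but the finer macrophage part was at 0.403 (0.327 to 0.493) and the monocyte part at 0.672 (0.625 to 0.722). The other ratios at 7d were 0.326 in the Ctla4 and Icos cluster, 0.498 in the stem or progenitor class, 0.504 in NK cells, 0.549 in B cells, 0.582 in mast cells or basophils, 0.585 in the mesenchymal pool and 0.630 in conventional dendritic cells. At 1d it was called lower in the Ctla4 and Icos cluster, 0.326, and the stem or progenitor class, 0.614.

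Neutrophil RNA also carries Prdx5. The 6 neutrophil genes S100a8, S100a9, Lcn2, Ngp, Camp and Ltf made up 0.30%, 0.243% and 0.0160% of the UMIs of the mesenchymal pool in Ctrl, 1d and 7d. In T cells they made up 0.0677%, 0.0982% and 0.0345%. In neutrophils there were 6.92 Prdx5 UMIs per 1000 UMIs of these genes in 7d and 18.5 in Ctrl. At that ratio they would carry 1.11 of the 120.04 CPM of Prdx5 in the pool of 7d and 55.5 of 205 in that of Ctrl. In NK cells they would carry 2.67 of 67.7 in 7d and 22.8 of 134 in Ctrl, and in mast cells or basophils 1.77 of 229 in 7d and 262 of 393 in Ctrl. In the Ctla4 and Icos cluster they would carry 2.33 of 48.3 in 7d and 68.6 of 148 in Ctrl. In the stem or progenitor class, where Prdx5 was 531 in Ctrl, 326 in 1d and 265 in 7d, the 6 genes made up 0.0489%, 0.113% and 0.0762% and would carry 9.06 of the CPM in Ctrl. With 5% free RNA subtracted the 7d ratios were 0.666 in the pool, 0.601 in NK cells, 0.620 in mast cells or basophils and 0.540 in neutrophils, but 1.08 in B cells.

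**Figure D4:**
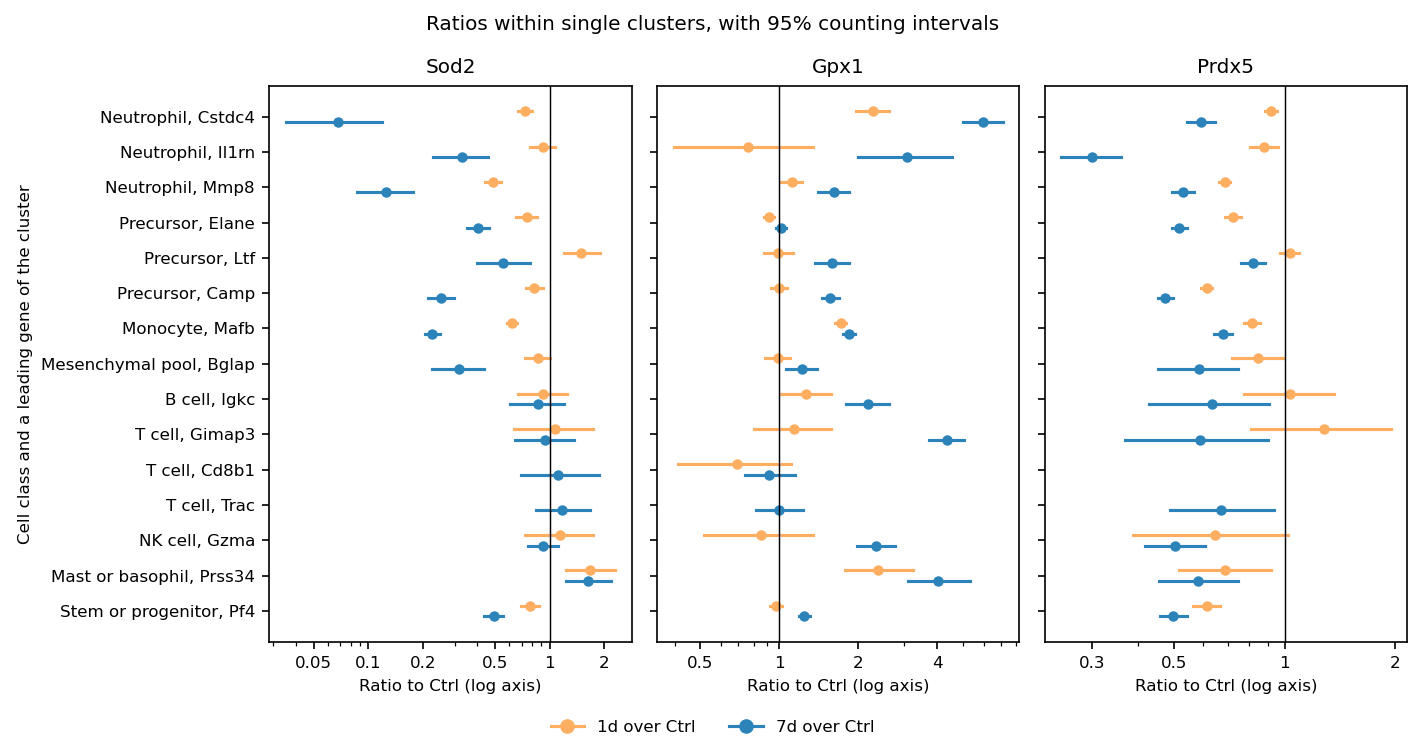
Ratio to Ctrl of Sod2, Gpx1 and Prdx5 (x axis, log scale) within 15 single clusters (rows, named by class and a leading gene), at 1d and 7d, with points at the ratio and bars over exact 95% counting intervals. At 7d Sod2 lies left of 1 in all neutrophil and precursor clusters, and Gpx1 lies near 1 in the Elane cluster and right of 1 in the neutrophil clusters.

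Prdx1, the cytosolic peroxiredoxin that thioredoxin reduces, was called lower at 7d in the mesenchymal pool, where it had 457 in Ctrl, 448 in 1d and 298 in 7d and a ratio of 0.654 (0.557 to 0.763). In neutrophils Prdx1 was called lower at both times (0.381 and 0.359), but on 32 and 8 UMIs in 1d and 7d and at levels no higher than 26.2 CPM, and with doublets kept the direction turned. In B cells of 1d it was 0.665 (0.596 to 0.740), against 0.863 in the largest cluster. In precursors of 7d it was 1.51 (1.31 to 1.74), while the Elane and Camp clusters alone were not called (1.17 and 0.715) and the Ltf cluster held too few UMIs. Monocytes held 782 in Ctrl, 578 in 1d and 619 in 7d.

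Prdx2 was called higher at 1d in 4 classes, B cells (2.20, 1.84 to 2.63), neutrophils (1.92), NK cells (1.55) and the mesenchymal pool (1.52, 1.31 to 1.76). Of these calls, thinned cells kept only that in B cells, and neutrophils turned to 0.789. TMM scaling, and likewise leaving out the top cell, kept B cells and neutrophils only. In the largest B cell cluster it was 1.29. The pool had 246 in 1d and 162 in Ctrl, beside 0.269% and 0.430% haemoglobin. At 7d Prdx2 was higher in mast cells or basophils (4.02, 1.88 to 10.3, 97 UMIs against 7) and precursors (1.53, and 1.17 in the Elane cluster) and lower in monocytes (0.665, 0.582 to 0.759; 0.759 and 0.718 in the finer macrophage and monocyte parts). Neither higher value was called with 5% free RNA subtracted (4.01 in mast cells or basophils and 1.36 in precursors) or in thinned cells (5.21 and 1.45), and the largest precursor cluster was at 0.706. The lower value in monocytes was not called in thinned cells (0.723).

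Prdx6 was called lower in B cells at 1d (0.491, 0.432 to 0.556) and 7d (0.624, 0.516 to 0.750) and in NK cells at 7d (0.653, 0.603 to 0.706). In the largest B cell cluster it was not called at 1d, at 0.862 (0.723 to 1.02), and was lower at 7d, at 0.629 (0.506 to 0.774). The Rag1 cluster held 926 of the 1271 B cells of 1d and 40 of the 1781 of Ctrl. It was higher than in Ctrl, without being called, in neutrophils, with 677 in Ctrl, 962 in 1d and 868 in 7d. In the Ltf precursor cluster it passed the threshold at both times, with 2.0 (1.78 to 2.25) and 1.79 (1.57 to 2.05). Its share of the enzyme UMIs of neutrophils was 13.1% in Ctrl, 20.5% in 1d and 23.6% in 7d, while that of Prdx5 was lower at both times than in Ctrl.

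Companion genes that recharge, repair or accompany these enzymes were counted from 7 lists, chosen with earlier results of these data known. In the mesenchymal pool at 7d, 4 of 6 measured thioredoxin system genes were lower and 2 higher, with a median log2 ratio of -1.49 beside 0.02 for all genes. Txnrd1, thioredoxin reductase, was at 0.102 (0.0666 to 0.151) and Srxn1, sulfiredoxin, which repairs overoxidised peroxiredoxins, at 0.167 (0.0982 to 0.266). Of 12 glutathione system genes 6 were lower and 1 higher (median -0.80). Slc7a11, the cystine transporter, had 1 UMI in 7d against 225 in Ctrl (ratio 0.0273, 0.000689 to 0.154), and Gsr, glutathione reductase, was at 0.182 (0.105 to 0.294). Neutrophil RNA also carries Slc7a11, which was at 2620 CPM in neutrophils of Ctrl and at 61.0 in the pool of Ctrl. The share of neutrophil RNA in the pool, given above, was lower in 7d than in Ctrl. Its part in the Slc7a11 ratios of the pool was not tested at either time. Of 5 other peroxiredoxins, glutathione peroxidases and dismutase partners 3 were higher, among them the secreted dismutase Sod3 at 2.22 (1.78 to 2.75) and Prdx4 of the endoplasmic reticulum at 1.54 (1.17 to 2.0). At 1d the pool had 1 of 6 thioredoxin genes higher, Txnip, which binds thioredoxin, at 2.29 (1.82 to 2.89), and 1 lower, the sestrin Sesn2, at 0.485 (0.359 to 0.643). Of 12 glutathione genes 2 were lower at 1d, Glrx5 at 0.630 (0.507 to 0.778) and Slc7a11 at 0.654 (0.464 to 0.904), and none of 6 genes of the list of other peroxidases and dismutases was called. Haemoglobin genes in the pool were lower for 4 of 4 and neutrophil genes for 6 of 6 at 7d, and at 1d 3 haemoglobin genes were lower, 1 was higher and no neutrophil gene was called. Of all measured genes in the pool, 385 of 5656 were higher and 393 lower at 1d, and 1096 of 5378 were higher and 1114 lower at 7d.

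In monocytes, of 6 thioredoxin genes, 2 were lower at each time and 1 higher at 7d. The lower ones were Txnrd1 at 0.417 (0.387 to 0.450) and 0.383 (0.351 to 0.417), and Srxn1 at 0.343 (0.293 to 0.401) and 0.497 (0.426 to 0.579). The list's median log2 ratios were -0.07 at 1d and -0.21 at 7d. Of 11 glutathione genes, 3 were higher and 4 lower at 1d, and 3 higher and 1 lower at 7d, with medians of 0.13 and 0.04. Slc7a11 was at 0.386 (0.363 to 0.411) at 1d and 0.194 (0.178 to 0.211) at 7d, and Mgst1, a membrane glutathione transferase, at 2.13 (1.84 to 2.46) and 2.41 (2.08 to 2.80). Prdx4 was at 4.72 (3.34 to 6.86) and 4.10 (2.87 to 6.02), the only one called of the 2 measured genes of the list of other peroxidases and dismutases. At Leiden resolution 2, Prdx4 was among the leading genes of a monocyte cluster of 19, 191 and 231 cells in Ctrl, 1d and 7d. Companion genes were measured in the whole class only, and the part of its cell makeup in these ratios was not tested. None of the 6 NADPH oxidase genes was called at either time, with median log2 ratios of 0.19 and 0.29. Of all measured genes in monocytes, 1320 of 6029 were higher and 683 lower at 1d, and 1222 of 5419 were higher and 820 lower at 7d. Neutrophil RNA in this class was 1.86%, 0.374% and 0.398% of UMIs in Ctrl, 1d and 7d, with 5 of 6 genes lower at each time, and all 4 haemoglobin genes were lower at 1d. Their part in these ratios was not tested.

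In neutrophils the NADPH oxidase genes, which make the superoxide, were higher at 7d for 2 of 6, Ncf1 at 1.78 (1.58 to 2.01) and Rac2 at 1.60 (1.47 to 1.73), and at 1d for none of 6. Sod2 in the same cells was at 0.142 at 7d. Glutathione genes were lower for 4 of 9 at 1d, with Gclm, a subunit of the enzyme that starts glutathione synthesis, at 0.383 (0.307 to 0.473) and Slc7a11 at 0.529 (0.512 to 0.546). At 7d 2 of 8 were higher and 3 lower, with Slc7a11 at 0.569 (0.537 to 0.602) and Mgst1 at 1.82 (1.60 to 2.07). Of 6 thioredoxin genes, Srxn1 was lower at 1d (0.595, 0.463 to 0.757), and Txnip (1.95, 1.77 to 2.14) and Sesn2 (1.68, 1.33 to 2.12) were higher at 7d. Genes of the later precursor stages, Ngp and Ltf, were higher in neutrophils at 7d (1.89, 1.86 to 1.92 and 2.01, 1.95 to 2.08), and the Mmp8 cluster held 91 of the 254 neutrophils of 7d and 241 of the 2966 of Ctrl. Neutrophil RNA was higher for 3 of 6 genes at each time. Of all measured genes in neutrophils, 351 of 5191 were higher and 816 lower at 1d, and 721 of 4829 were higher and 981 lower at 7d.

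Neutrophil precursors had no thioredoxin, glutathione or NADPH oxidase gene called at 1d, of 5, 11 and 6 measured. At 7d 2 of 6 thioredoxin genes were higher, Txnip at 3.57 (2.95 to 4.35) and the mitochondrial reductase gene Txnrd2 at 1.76 (1.00 to 3.34), and 3 of 11 glutathione genes were higher and 2 lower. Gclc, the catalytic subunit of glutathione synthesis, was at 2.92 (2.19 to 3.97), the glutathione transferase Gstm1 at 1.91 (1.78 to 2.06) and the mitochondrial Prdx3 at 2.23 (1.57 to 3.26). All of these are to be read against the median log2 ratio of 0.43 over all genes. Of all measured genes in precursors, 727 of 7536 were higher and 544 lower at 1d. At 7d 2895 of 7438 were higher and 610 lower. TMM scaling, which moves each log2 ratio by -0.36 here, would take Txnrd2 and Gstm1 under the threshold, and Sephs2, given below, as well. Genes that place selenocysteine, and so serve Gpx1, Gpx3 and Gpx4 through the codon shown above, were few: at most 3 of the 6 on the list could be measured in neutrophils, precursors, monocytes or the pool. In precursors Secisbp2, which binds the selenocysteine signal in the RNA, was at 1.67 (1.05 to 2.80) at 1d and 2.15 (1.35 to 3.60) at 7d and Sephs2, which makes the selenium donor, at 1.57 (1.37 to 1.81). In monocytes of 7d Trnau1ap was at 1.68 (1.13 to 2.53), and in neutrophils and the pool none of this list was called. Haemoglobin genes in precursors were lower for 3 of 4 at 1d and higher for 4 of 4 at 7d, and their part in these ratios was not tested.

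Genes whose levels followed each enzyme were ranked by Pearson's r of log2(level + 10) over the 43 pairs of class and library, among 6013 genes with a mean of at least 20 CPM. The points share libraries, depth and free RNA, so the values are descriptive. The closest were Dcn (0.97) and Gas1 (0.97) for Gpx3, Alas1 (0.95) and Tmem38b (0.93) for Prdx5, Mrpl52 (0.89) and Vcp (0.88) for Prdx1 and Def6 (0.89) and Ccdc88b (0.87) for Prdx6. For Gpx1 they were Stom (0.86) and Tmem14c (0.85), for Sod1 Crip1 (0.84) and Rack1 (0.76), for Sod2 Esd (0.77) and Lrrfip2 (0.76), for Cat Mzt1 (0.77) and for Gpx4 Zwint (0.70) and Nbdy (0.64). Among the members themselves the closest pairs were Sod1 and Prdx1 (0.74), Cat and Prdx2 (0.71) and Sod2 and Prdx5 (0.69).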

How the data were processed

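Jaw cells of 3 groups (Ctrl, 1d and 7d, 1 library each) were profiled by droplet 3′ single-cell RNA sequencing. The deposited UMI counts per gene and barcode were made with Cell Ranger 6.1.1, per the file headers, and the submitters' processing notes also name CASAVA 1.8, Seurat and mm10. Cells with at least 500 UMIs, 250 genes and at most 15% mitochondrial UMIs were kept, and doublets (2.89%, 4.84% and 6.20% of cells in Ctrl, 1d and 7d) were removed by simulated doublet scores, using an automatic threshold in Ctrl and the expected rate in 1d and 7d. Cells were clustered with scanpy 1.11.5 (2000 variable genes, 30 components, Leiden resolution 1) and named from marker lists. UMIs were summed per class and library and scaled to counts per 1000000 (CPM). Ratios carry exact conditional binomial 95% intervals for counting error only and were tested on simulated data, and TMM factors came from edgeR 4.0.16. The simulated counts were independent Poisson draws, as the intervals assume. They leave out the bunching of UMIs in single cells, so they check the calculation only. No test was run between groups. All 10 members were described in every class compared, and each companion list is named by at most 2 called genes, ranked by the distance from 1 of the interval bound closest to it. Part of the ranking of genes by likeness to Cat and Prdx2 is not reported here. The members, lists and tests were chosen with earlier results of these data known.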

Additional observations from a re-analysis of the deposited data

Results flagged for a closer look

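In 5 cases a member was called higher in one class and lower in another at the same time after irradiation. These differences were not tested, since each group was 1 library. For Sod2 the log2 ratio in mast cells or basophils minus that in neutrophils was 1.53 at 1d and 3.52 at 7d. For Gpx3 at 7d the log2 ratio of the mesenchymal pool exceeded that of neutrophil precursors by 2.24, and the precursor value rested on 1 Ctrl cell with 51.6% of the UMIs. For Prdx1 at 7d the log2 ratio of neutrophil precursors exceeded that of neutrophils by 2.07, with 8 UMIs in neutrophils of 7d. For Prdx2 at 7d the log2 ratio of mast cells or basophils exceeded that of monocytes by 2.59, with 7 UMIs in mast cells or basophils of Ctrl.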

How the results depend on the processing

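No paired analysis was possible because each group was 1 library, and for the same reason no replicate could be left out. Of 949 log2 ratios taken for the called genes under 16 alternatives, 769 kept their direction and call, 167 kept their direction only and 13 turned. A minimum of 20 UMIs, a minimum of 100 cells and leaving out the monocyte class alter no ratio. Their 64, 43 and 57 values, all among the 769, were thus the same by construction. In thinned cells 30 of 63 kept direction and call. Of the alternatives, 3 were chosen after seeing the data: leaving out the mixed monocyte class, asking for 100 cells per class, and leaving out the top cell of a gene. Counts of member genes called higher at 1d (12) were 6 in cells thinned to 1000 UMIs and 4 at a 2-fold threshold. Those lower at 1d (11) were 6 when thinned, 7 with the stricter cell filter, 7 and 6 at Leiden resolutions 0.5 and 2, 18 with median-of-ratios factors, 4 at 2-fold and 7 in the largest cluster of each class. Those higher at 7d (20) were 11 when thinned, 10 at 2-fold and 13 in classes of at least 100 cells, and those lower at 7d (21) were 11 when thinned and 9 at 2-fold. The log2 ratio turned in the largest cluster for Cat in B cells at 1d (-0.27), Prdx1 in neutrophils at 7d (0.29), Sod1, Prdx1 and Prdx2 in neutrophil precursors at 7d (-0.36, -0.95 and -0.50) and Gpx1 in T cells at 7d (-0.00485). In thinned cells it turned for Cat in the stem or progenitor class at 7d (-0.750), Prdx2 in neutrophils at 1d (-0.34) and Cat in precursors at 1d (-1.42). It turned with doublets kept for Prdx1 in neutrophils at 1d (0.37) and 7d (1.14), with 5% free RNA subtracted for Prdx5 in B cells at 7d (0.11), and without the top cell for Gpx3 in precursors at 7d (0.14). The cause was not tested. Thinning cells and taking the largest cluster alone can only lower the number of UMIs used, while keeping doublets adds cells. The leading enzyme was the same in 37 of 43 pairs of class and library in thinned cells, 34 of 35 with the stricter filter, 33 of 34 with doublets kept, 32 of 32 and 36 of 37 at resolutions 0.5 and 2, 38 of 43 by the mean per cell, 40 of 43 with free RNA subtracted and 39 of 42 in the largest cluster.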
